A study of Rattus norvegicus with 6 samples.

Results

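The chaperone genes described here are 40 rat genes chosen by symbol, 21 that act in or on the endoplasmic reticulum (ER) and 19 of the cytosolic and mitochondrial heat shock system, and their RNA was measured in the renal cortex of rats given chlorothalonil or corn oil. A probe of the array matched a RefSeq transcript of 36 of the 40 genes. No such probe was matched for Manf, Edem1, Hspa1b and Dnajb1, which are therefore not analysed here. The probe of Hspa1l, an Hsp70 gene best known from testis, was not well above background on any of the 6 arrays, and was left out. The remaining 35 genes, 19 of the ER and 16 of the cytosol and mitochondria, are described below, among 29115 genes or unnamed probes measured in all. Of the 35 genes, 0 rose and 0 fell past the threshold used, an adjusted p of 0.05, which 3.12% of all features passed.

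Proteins that enter the ER are folded there by the Hsp70 protein BiP (Hspa5), the Hsp90 protein Grp94 (Hsp90b1), the lectins calreticulin and calnexin, and the protein disulfide isomerases, which form and rearrange disulfide bonds. When unfolded protein accumulates, the sensors Ire1, Perk and Atf6 start the unfolded protein response, in which Xbp1 and Atf6 raise the transcription of these chaperones and of the machinery that sends misfolded proteins to the proteasome. In the cytosol, damaged protein releases the transcription factor Hsf1, which raises the Hsp70, Hsp90, Hsp40 and small heat shock genes. Many reactive chemicals that modify protein thiols are known to switch on one or the other of these programmes, and chlorothalonil, a chlorinated fungicide that reacts with thiols, is processed and injures the tubule in the rat kidney.

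The study compared 2 groups of 3 male Sprague-Dawley rats (Crl:CD(SD)), bought at 5 weeks of age. The control group received corn oil and the other group chlorothalonil at 500 mg/kg/day, each for 4 weeks, and RNA of the renal cortex went onto Agilent 1-colour arrays, 1 array per animal. The titles of the control samples carry the letters VC, which the labels do not spell out. The design text calls the samples of a group biological replicates. For chlorothalonil replicate 3 the source name carries ethylenediamine dihydrochloride, while its title, treatment and the treatment protocol give chlorothalonil, so values are also given without it where it bears on a result. All corn oil arrays were on 1 slide with 1 scan and all chlorothalonil arrays on another, and a slide effect cannot be told apart from the treatment.

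Per array, 38234 to 41711 of 61537 probes were well above background, the fewest on corn oil replicate 3. All 10 proximal tubule markers were measured, but so were all 6 collecting duct and medulla markers, so this does not single out the cortex. The summed level of the 10 was 1554 to 1739 in corn oil and 1801 to 1874 in chlorothalonil rats, in units of each array's 75th percentile. Such a sum weighs most the genes with the brightest probes, here Slc13a3 and Slc34a1. Singly, 6 were higher and 4 lower in chlorothalonil rats, and 0 passed the threshold. The groups were apart for 4 of them (40%, against 27.7% of all features). Chlorothalonil was higher for 3 (30%, against 13.6%) and lower for 1, Slc5a2 (10%, against 14%). In such bulk tissue, fewer cells of a type and less RNA per cell cannot be told apart. Levels below are log2 signals relative to each array's 75th percentile, so 0 is that percentile and levels of different genes are not compared, since each probe binds with its own strength. A log2 difference is always chlorothalonil minus corn oil, with its standard error (SE) from limma.

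Promoter sequences are shown first, because the ER and the heat shock genes are known to answer to different elements. RefSeq promoter windows of rat assembly GRCr8, from 250 bases before to 50 bases after the start, matched 31 of the 40 genes, 17 of the ER and 14 of the cytosol and mitochondria. The ER stress response element was searched on both strands as CCAAT and CCACG with any 9 bases between them, the parts bound by NF-Y and by Atf6 or Xbp1. It was in 8 of the 17 ER windows (47.1%), in 0 of the 14 cytosolic windows, and in 22 of all 33469 windows (0.0657%). The elements of 5 of the 8 genes are shown, those of the main ER Hsp70 and Hsp90, of Xbp1, and of Dnajc3 and Ero1b, whose values are discussed most, each with 5 bases on either side, 5′ to 3′ in the direction of the motif, and with capitals for the fixed letters. The coordinates are of the element alone.

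Hspa5 (chr3:38452973-38452991, same strand as the gene): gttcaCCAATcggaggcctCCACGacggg
Hsp90b1, distal (chr7:23012451-23012469, same strand): caaacCCAATcgaaaggagCCACGcttcg
Hsp90b1, proximal (chr7:23012347-23012365, opposite strand): acccaCCAATcgtgcctcaCCACGcactc
Xbp1 (chr14:84604558-84604576, same strand): acaggCCAATcgcagacggCCACGaccct
Dnajc3 (chr15:102432534-102432552, same strand): caaagCCAATcagcgccaaCCACGaccca
Ero1b (chr17:92941458-92941476, opposite strand): ggcggCCAATgaggcgggaCCACGagggc

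The other 3 genes with the element were Creld2, Canx and Calr. In the promoter of Hspa5, the reference gene of the unfolded protein response, the element lay at positions -43 to -25, where -1 is the base before the start. The 250 bases before that start, chr3:38452766-38453015 on the plus strand, hold it near their 3′ end, with capitals as above: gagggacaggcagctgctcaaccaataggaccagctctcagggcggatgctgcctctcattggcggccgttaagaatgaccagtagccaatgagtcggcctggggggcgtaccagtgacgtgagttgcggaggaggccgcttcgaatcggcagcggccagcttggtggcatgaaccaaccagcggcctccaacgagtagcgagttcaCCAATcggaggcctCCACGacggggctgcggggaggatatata.

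The heat shock element was searched as 3 blocks in turn, GAA, TTC and GAA or TTC, GAA and TTC, with any 2 bases between blocks. These forms are reverse complements of each other, so both strands are covered, and such arrays of blocks are what Hsf1 trimers bind. It was in 5 of the 14 cytosolic and mitochondrial windows (35.7%), in 0 of the 17 ER windows and in 267 of all 33469 (0.798%). These are shown with 5 flanking bases in the direction of the gene, with the fixed letters in capitals; overlapping matches are joined.

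Hspa8, distal (chr8:50080301-50080313): agcgtGAAagTTCcaGAAcgctg
Hspa8, proximal (chr8:50080459-50080471): aacccTTCtgGAAggTTCtaaga
Hsph1 (chr12:10427332-10427344): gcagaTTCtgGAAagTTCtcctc
Dnaja1 (chr5:60638413-60638425): gggcgGAActTTCcaGAAcgctc
Hspe1 (chr9:64084262-64084279): ctcggTTCtaGAAccTTCcgGAAggccc

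Hspd1 and Hspe1, the mitochondrial Hsp60 and its co-chaperonin Hsp10, are transcribed away from each other, and the last element is in the windows of both. A match of letters describes the window only. The log2 differences of the 8 genes with the ER stress element ran from -0.40 (Xbp1) to 0.97 (Ero1b), with 4 above and 4 below 0. Those of the 5 genes with the heat shock element ran from -0.37 (Hsph1) to 0.07 (Hspd1), with 1 above and 4 below 0. Genes that shared the ER stress element thus lay on both sides of 0. The signs in the heat shock set were not firm either. Hspd1, the 1 gene above 0, was at 0.07 ± 0.07, and quantile normalization turned it to -0.01. Of the 4 below 0, Dnaja1 (-0.04 ± 0.11) turned to 0.01 and Hspe1 (-0.02 ± 0.09) to 0.03 with scaling on the array median. That scaling raised the median of all features by 0.05.

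Across all 29115 features, 909 (3.12%) passed the threshold in limma, 378 higher (1.3%) and 531 lower (1.82%) in chlorothalonil rats. Among the 11926 features with a gene symbol, the class the chaperones belong to, 172 were higher and 83 lower. Among the 35 chaperone genes 0 passed, and the lowest adjusted p was 0.070, for Sel1l. At an unadjusted p under 0.05 there were 8 of 35 (22.9%) against 19.7% of all features. Of these, 6 were higher (17.1%, against 9.6% of all features and 11.3% of those with a symbol) and 2 lower (5.71%, against 10.1% and 7.23%). The 3 arrays of a group all lay on one side of the 3 of the other for 9 of 35 genes (25.7%), against 27.7% of all features. Chlorothalonil was the higher side for 7 of them (20.0%, against 13.6% of all features and 16.3% of those with a symbol) and the lower for 2 (5.71%, against 14% and 11.4%). The totals were near those of all features, with more of the higher and fewer of the lower; the balance of directions was not tested. The median log2 difference was -0.02 over the chaperones and 0.00 over all features, and the median size without sign was 0.135 and 0.136.

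The 95% intervals are those of the brightest probe of each gene, which stands for it, and they do not cover a slide effect. For 33 of the 35 genes the interval lay within a 2-fold change either way, the exceptions being Ero1b and Cryab. For 26 it lay within a 1.5-fold change. Over all 29115 features the interval lay within these limits for 25718 and 20013, so most features share such intervals. Other probes of a gene could lie outside its interval. That of Hspa8 ran from -0.29 to 0.11, and another of its probes was at -0.59.

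**Figure D1:**
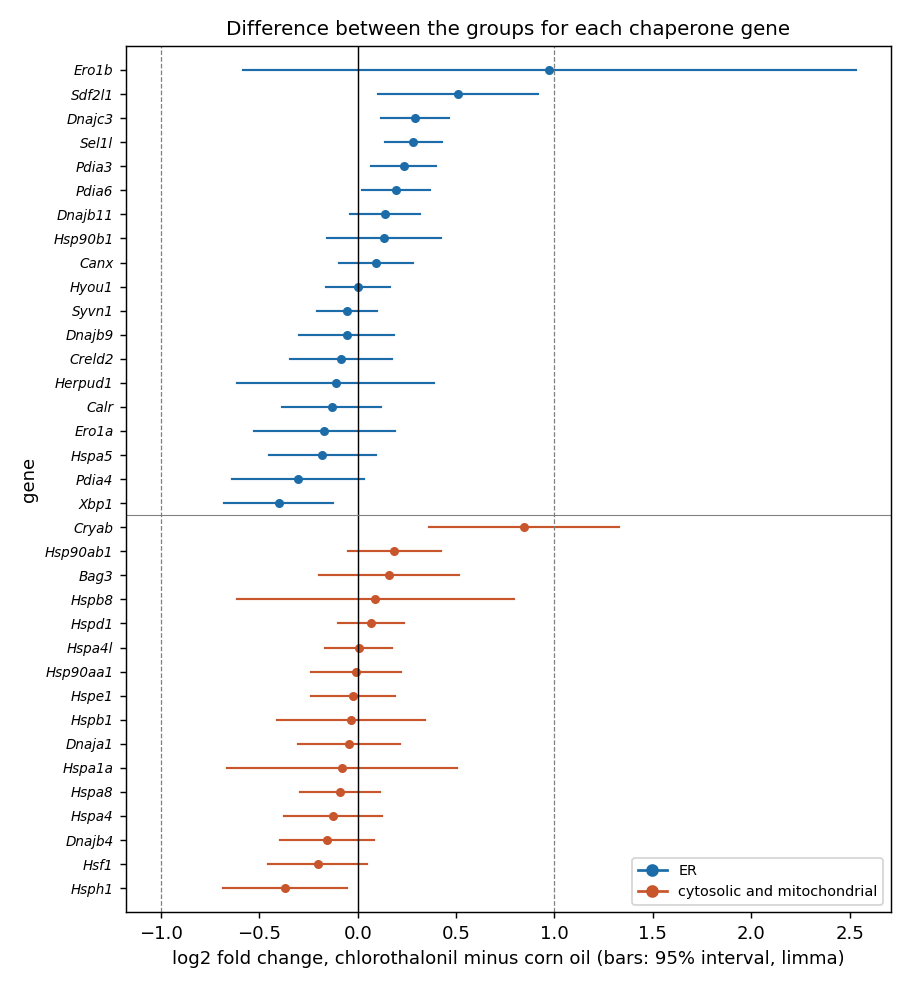
Log2 difference (chlorothalonil minus corn oil; horizontal axis) of each of the 35 chaperone genes, with its 95% interval from limma (3 arrays per group); blue marks ER genes, orange cytosolic and mitochondrial genes, and dashed lines a 2-fold change. Most points lie close to 0. Ero1b and Cryab have the largest differences, 0.97 and 0.85, and 0 of 35 genes passed the adjusted p of 0.05, against 3.12% of all features.

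ER genes and cytosolic genes were also counted apart. Of the 19 ER genes, 10 lay above and 9 below 0, with a median of 0.00. Of the 16 cytosolic and mitochondrial genes, 6 lay above and 10 below, with a median of -0.03. Scaling each array on its median raised these medians to 0.05 and 0.02, and it raised the median of all features by 0.05 as well, so the balance of signs rests on the scaling. At an unadjusted p under 0.05 there were 6 of 19 ER genes (31.6%; 5 higher and 1 lower) and 2 of 16 cytosolic genes (12.5%; 1 higher and 1 lower), against 19.7% of all features (9.6% higher and 10.1% lower). The difference between the lists was not tested.

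Among the ER Hsp70 and Hsp90 machinery, no chaperone itself passed the test. Hspa5 (BiP), the main Hsp70 of the ER lumen, read 5.28, 5.20 and 4.95 in the corn oil rats, in the order of their replicate numbers as throughout, and 4.93, 5.08 and 4.88 in the chlorothalonil rats. The groups overlapped, with 2 corn oil arrays above every chlorothalonil array. The log2 difference was -0.18 ± 0.11 (SE, n = 3 per group; adjusted p = 0.43), and -0.11 without corn oil replicate 1. Its 95% interval ran from -0.45 to 0.09. Grp94 (Hsp90b1) differed by 0.14 ± 0.12 (adjusted p = 0.58), and its 2 probes lay on both sides of 0, at -0.01 and 0.14. It came to 0.02 without chlorothalonil replicate 1 and to 0.24 without chlorothalonil replicate 3. Hyou1, a large Hsp70-like exchange factor of BiP, stood at 0.00 ± 0.07 (adjusted p = 0.99).

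The co-chaperones of BiP differed among themselves, and none passed. Dnajc3 (p58IPK), a J-domain partner of BiP that also restrains the kinase Perk, read 1.98, 2.08 and 2.07 in corn oil and 2.39, 2.25 and 2.37 in chlorothalonil rats. All chlorothalonil arrays were above all corn oil arrays, by 0.29 ± 0.07 (adjusted p = 0.099). Dnajc3 was the only chaperone gene to pass in any of the 16 alternatives: the difference was 0.37 with a normexp background (adjusted p = 0.035) and 0.29 with a trended, robust variance prior (adjusted p = 0.048), within a range of 0.035 to 0.25 over all alternatives. In those fits 4.56% and 4.52% of all features passed.

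Sdf2l1, which works with Dnajb11 in an ER chaperone complex, read 1.85, 2.20 and 1.86 in corn oil and 2.71, 2.20 and 2.53 in chlorothalonil rats. Replicate 2 of both groups gave the same value to 2 decimals, and the other chlorothalonil arrays were above all corn oil arrays. The difference was 0.51 ± 0.16, a 1.42-fold higher mean (adjusted p = 0.18), and the 3 probes of the gene gave 0.38 to 0.51. Dnajb11 (ERdj3), the J-domain protein that hands clients to BiP, was at 0.14 ± 0.07 (adjusted p = 0.35), with the groups apart. Dnajb9 (ERdj4), another J-domain protein and a textbook target of Xbp1, was at -0.05 ± 0.10 (adjusted p = 0.80).

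**Figure D2:**
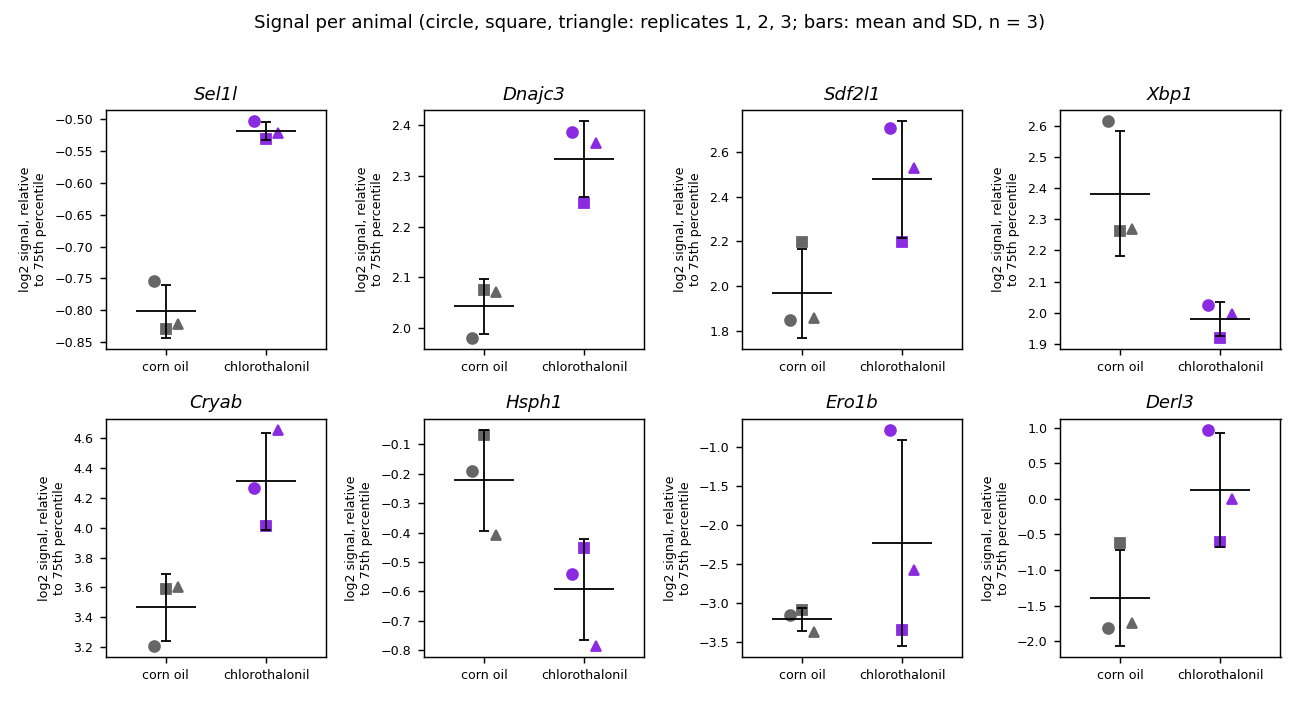
Log2 signal relative to the array's 75th percentile (vertical axis, own scale for each gene) in the 3 corn oil rats (grey) and 3 chlorothalonil rats (purple), for 7 chaperone genes and Derl3; symbols mark replicates 1, 2 and 3, and bars the mean ± SD. Groups are apart for Sel1l, Dnajc3, Xbp1, Cryab, Hsph1 and, by a narrow margin, Derl3; they overlap for Sdf2l1 and Ero1b, where chlorothalonil replicate 1 is the highest array.

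The protein disulfide isomerases differed in sign. Pdia3 (ERp57), which works on glycoproteins with calreticulin and calnexin, read 2.84, 2.95 and 2.90 in corn oil and 3.09, 3.10 and 3.20 in chlorothalonil rats, so that the groups were apart. The difference was 0.23 ± 0.07 (adjusted p = 0.14), but 0.05 with a normexp background. Pdia6 (P5), an isomerase that binds BiP, read 3.79, 3.92 and 3.79 against 4.07, 3.96 and 4.06, again with every chlorothalonil array higher, at 0.20 ± 0.07 (adjusted p = 0.21). Pdia4 (ERp72), another isomerase found with BiP, read -0.35, -0.60 and -0.54 in corn oil and -0.86, -0.55 and -0.99 in chlorothalonil rats. Here chlorothalonil replicate 2 lay among the corn oil arrays and the other chlorothalonil arrays below them, with a difference of -0.30 ± 0.14 (adjusted p = 0.30). Pdia4 was described array by array after its values were seen.

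The lectin chaperones and the oxidases that recharge the isomerases did not pass either. Calreticulin (Calr) was at -0.13 ± 0.10 (adjusted p = 0.53), or -0.04 without chlorothalonil replicate 3, and calnexin (Canx) at 0.09 ± 0.08 (adjusted p = 0.55). Ero1a, the widely expressed ER oxidase, read 0.21, -0.13 and 0.14 in corn oil and -0.31, -0.10 and 0.12 in chlorothalonil rats. The groups overlapped over most of their range (-0.17 ± 0.15; adjusted p = 0.57), and the difference was -0.06 without chlorothalonil replicate 1 and -0.10 without corn oil replicate 1. Creld2, a secreted ER stress protein, was at -0.08 ± 0.11 (adjusted p = 0.71).

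Ero1b, the oxidase paralog best known from secretory cells such as those of the pancreas, had the largest difference of any chaperone gene and the least certain, and is given by array because of it. It read -3.16, -3.09 and -3.37 in corn oil and -0.78, -3.34 and -2.57 in chlorothalonil rats. Chlorothalonil replicate 1 was far above every other array, while replicate 2 was among the corn oil arrays. The difference of 0.97 ± 0.63 (adjusted p = 0.45) came to 0.25 without chlorothalonil replicate 1. A second probe of the gene was well above background on 3 of 6 arrays and was not used. Its log2 difference was 0.10. On it chlorothalonil replicate 1 read -4.92, against -5.18, -5.15 and -5.80 in corn oil, so it did not show the large rise of the first probe.

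Of the genes of ER-associated degradation, Sel1l came nearest to the threshold among all 35. Sel1l, the scaffold that holds the ubiquitin ligase Hrd1, read -0.75, -0.83 and -0.82 in corn oil and -0.50, -0.53 and -0.52 in chlorothalonil rats. The groups were apart and the arrays within each group close together. The difference was 0.28 ± 0.06, a 1.22-fold higher mean (adjusted p = 0.070, range 0.054 to 0.21 over the alternatives), and a second probe gave 0.28 as well. Hrd1 itself (Syvn1), the ligase, was at -0.05 ± 0.06 (adjusted p = 0.69), with probes at -0.05 and 0.32. Herpud1, a small membrane protein that organises the same complex and responds strongly to ER stress, read 3.97, 3.54 and 3.30 against 3.68, 3.56 and 3.24. Its groups overlapped throughout (-0.11 ± 0.20; adjusted p = 0.81), and both of its probes were below 0. The difference turned to 0.07 without corn oil replicate 1 and to 0.02 without chlorothalonil replicate 3.

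Xbp1, the transcription factor that carries the Ire1 signal and whose own gene is a target of the response, was the ER gene with the lowest difference. It read 2.61, 2.26 and 2.27 in corn oil and 2.02, 1.92 and 2.00 in chlorothalonil rats. All chlorothalonil arrays were below all corn oil arrays, with corn oil replicate 1 well above the rest. The difference was -0.40 ± 0.11 (adjusted p = 0.14), and -0.29 without corn oil replicate 1. The splicing of Xbp1 RNA by Ire1 was not measured.

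In the cytosol, the inducible heat shock genes did not pass the test. Hspa1a, the stress-inducible Hsp70, read -1.75, -2.46 and -2.52 in corn oil and -2.07, -2.41 and -2.50 in chlorothalonil rats. Replicate 1 was the highest in both groups, and the groups overlapped (-0.08 ± 0.24; adjusted p = 0.89). Its near-identical copy Hspa1b had no probe of its own here, and the Hspa1a probe may bind RNA of both. Hspb1 (Hsp27), a small heat shock protein that holds unfolded clients and binds actin, read 1.90, 1.86 and 1.39 against 1.73, 1.75 and 1.56 (-0.03 ± 0.15; adjusted p = 0.93). Corn oil replicate 3 was the lowest array for Hspb1, and the chlorothalonil arrays lay inside the corn oil range.

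Cryab, the small heat shock protein alpha B-crystallin, stood apart from the other cytosolic chaperones in size. It read 3.21, 3.59 and 3.60 in corn oil and 4.27, 4.01 and 4.66 in chlorothalonil rats. Every chlorothalonil array was above every corn oil array. The difference was 0.85 ± 0.20, a 1.80-fold higher mean (adjusted p = 0.092, range 0.055 to 0.21), and 0.67 without chlorothalonil replicate 3. The 95% interval ran from 0.36 to 1.33.

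Cryab is abundant in muscle and in the renal medulla, so markers of muscle and a joint list of collecting duct and medulla markers were read beside it. The joint list does not measure the share of medulla alone. Of 6 collecting duct and medulla markers 0 passed. Their summed level was 140 to 176 in corn oil and 158 to 229 in chlorothalonil rats, and it rests most on Aqp2, the brightest of them. The log2 differences of the 6 markers, 4 above and 2 below 0, began at -0.10 (Slc14a2). The highest was 0.73 (adjusted p = 0.14), for Slc4a1, a chloride-bicarbonate exchanger of intercalated cells and red cells. The next was Aqp2, at 0.19. The 4 red cell markers were all higher in every chlorothalonil array, by a median of 0.26, as were 13.6% of all features, and 0 of them passed. The 3 skeletal muscle markers measured were all dim. Acta1 was at -1.62 (adjusted p = 0.036), Ckm at 0.69 (adjusted p = 0.46) and Tnnt3 at -0.17 (adjusted p = 0.60). Acta1 was well above background on 5 arrays and Ckm on at most 4. Each passed the signal filter only through the group where it read higher, corn oil for Acta1 and chlorothalonil for Ckm. Their differences and p-values are therefore no evidence on muscle content. The summed level of the 3 muscle markers, with the same limit, was 0.124 to 0.150 in corn oil and 0.0928 to 0.0983 in chlorothalonil rats. The part of medullary or muscle tissue in the Cryab difference was not tested.

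The other small heat shock and partner genes differed less. Hspb8, a small heat shock protein that works with Bag3 in selective autophagy, was at 0.09 ± 0.29 (adjusted p = 0.90), with chlorothalonil replicate 1 the lowest and replicate 2 the highest array. Bag3 was at 0.16 ± 0.14 (adjusted p = 0.59), and at 0.00 without corn oil replicate 3, its lowest array. Hsf1, the regulator of the whole programme, read 1.27, 1.16 and 1.10 in corn oil and 0.96, 1.14 and 0.82 in chlorothalonil rats. The groups touched only through chlorothalonil replicate 2, with a difference of -0.20 ± 0.10 (adjusted p = 0.34), or -0.13 without chlorothalonil replicate 3. Activation of Hsf1 protein was not measured.

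Hsph1 (Hsp110), an exchange factor that helps Hsp70 dissolve aggregates and a typical Hsf1 target, had the lowest difference in the cytosol. It read -0.19, -0.07 and -0.41 in corn oil and -0.54, -0.45 and -0.79 in chlorothalonil rats. The groups were apart by a narrow margin, at -0.37 ± 0.13 (adjusted p = 0.19). The related exchange factor Hspa4 read 4.16, 4.21 and 4.12 against 4.07, 3.85 and 4.20 (-0.13 ± 0.10; adjusted p = 0.55), with chlorothalonil replicate 3 inside the corn oil range and -0.03 without chlorothalonil replicate 2. Hspa4l, its paralog, was at 0.00 ± 0.07 (adjusted p = 0.98). Of the J-domain partners, Dnajb4 read -1.25, -1.38 and -1.52 against -1.58, -1.42 and -1.61, with overlapping groups (-0.15 ± 0.10; adjusted p = 0.44; -0.09 without corn oil replicate 1), and Dnaja1 was at -0.04 ± 0.11 (adjusted p = 0.86).

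The 2 cytosolic Hsp90 genes and the constitutive Hsp70 have many near-identical copies in mammalian genomes, so their probes may share signal and are reported as uncertain. Hsp90ab1, the constitutive Hsp90, read 5.01, 5.20 and 5.08 in corn oil and 5.35, 5.37 and 5.13 in chlorothalonil rats. Chlorothalonil replicates 1 and 2 were the highest arrays and replicate 3 lay in the corn oil range (0.19 ± 0.10; adjusted p = 0.35). The 5 Hsp90ab1 probes ran from -0.11 to 0.19, and their mean gave 0.00. Hsp90aa1, the inducible form, was at -0.01 ± 0.09 (adjusted p = 0.97). All 6 of its probes were below 0, down to -0.35, and the brightest came to 0.04 when scaling on the array median raised all features by 0.05.

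Hspa8 (Hsc70), the constitutive Hsp70 that folds new proteins and uncoats clathrin vesicles, was the gene where the choice of probe mattered most in one direction. The brightest probe gave -0.09 ± 0.08 (adjusted p = 0.60). All 8 probes were below 0, from -0.59 to -0.09, and 5 of them had every chlorothalonil array below every corn oil array. Fitted as features of their own, 0 of the 8 passed (lowest adjusted p = 0.074, where 2.67% of all probes passed), and the mean of the probes was at -0.27 (adjusted p = 0.25). Probes of 1 gene read the same RNA and are not replicates.

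The mitochondrial pair did not pass the test either. Hspd1 (Hsp60), which folds proteins imported into the matrix, read 6.62, 6.63 and 6.48 in corn oil and 6.63, 6.64 and 6.66 in chlorothalonil rats. The chlorothalonil arrays were all higher, but by 0.07 ± 0.07 (adjusted p = 0.63), and corn oil replicate 3 was below the other corn oil arrays. Its 5 probes gave 0.07 to 0.17, each with the groups apart, whereas quantile normalization turned the brightest to -0.01. Hspe1 (Hsp10) was at -0.02 ± 0.09 (adjusted p = 0.91).

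**Figure D3:**
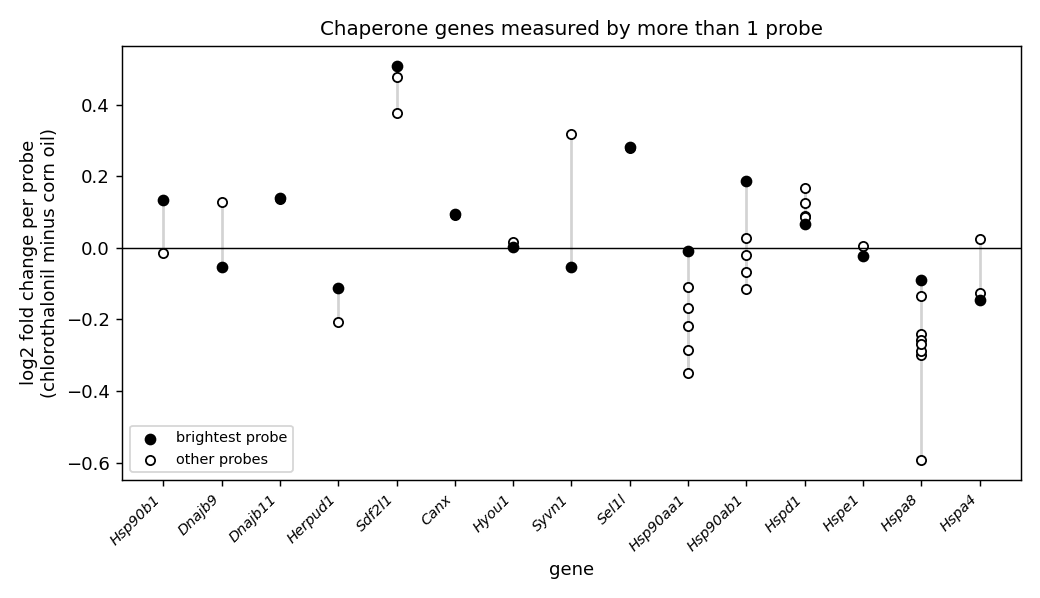
Log2 difference (chlorothalonil minus corn oil; vertical axis) of each measured probe for the 15 chaperone genes with more than 1; filled circles mark the brightest probe, which stands for the gene, and open circles the others. All 8 probes of Hspa8 and all 6 of Hsp90aa1 lie below 0, all 3 of Sdf2l1 and all 5 of Hspd1 above, and 6 genes have probes on both sides.

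Over all chaperones, 68 probes of 35 genes were measured. Of the 15 genes with more than 1 probe, 9 had all probes on the same side of 0 and 6 had them on both. Fitted singly, 0 of the 68 probes passed.

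The arrays of a group differed among themselves by more than the group medians did. Relative to the corn oil mean of each gene, the median ER gene stood at 0.05, 0.00 and -0.06 in corn oil and at 0.07, -0.04 and 0.01 in chlorothalonil rats. The median cytosolic gene stood at 0.04, 0.07 and -0.09 in corn oil and at -0.03, 0.01 and -0.02 in chlorothalonil rats. The chlorothalonil values thus lay inside the corn oil range for the cytosolic genes, and for the ER genes replicate 1 was slightly above it. Corn oil replicate 1 was the highest array for 9 ER and 5 cytosolic genes, and corn oil replicate 3 was the highest for 0 and the lowest for 5 and 6. Chlorothalonil replicate 3, the animal with the differing source name, was the highest for 2 ER and 4 cytosolic genes and the lowest for 7 and 6. Corn oil replicate 3 had the fewest probes above background; the part of this in its chaperone values was not tested.

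**Figure D4:**
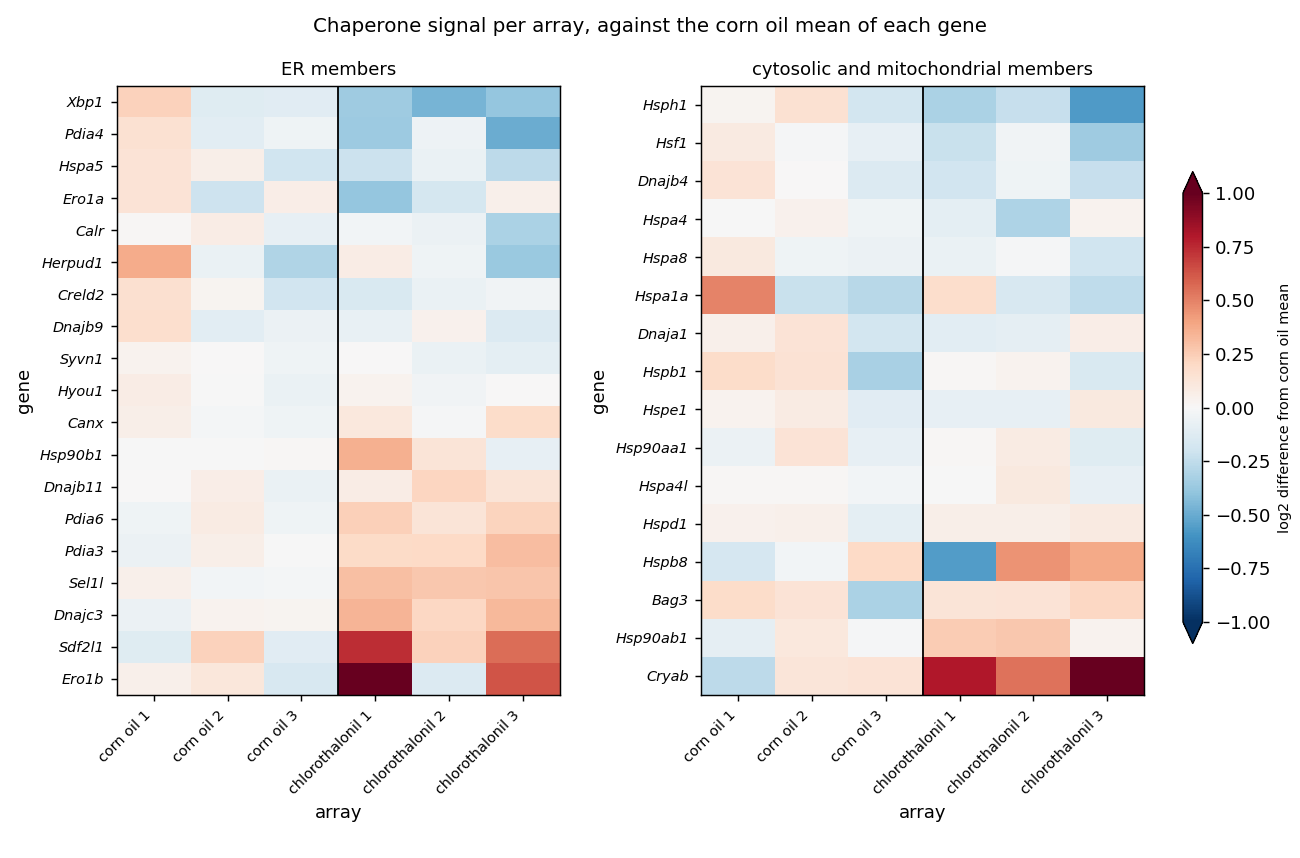
Log2 difference of each array (columns) from the gene's corn oil mean, for the 19 ER genes (left) and 16 cytosolic and mitochondrial genes (right), ordered by the difference between groups; red is higher and blue lower, and colours saturate at 1 either way. Strong red is limited to Ero1b, Sdf2l1 and Cryab in chlorothalonil rats, and corn oil replicate 1 is red for Herpud1 and Hspa1a.

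Other genes of the same pathways were read from 7 lists of 180 genes, of which 165 were measured. Of these, 0 rose and 0 fell, where 1.3% of all features rose and 1.82% fell. An unadjusted p under 0.05 was found for 21 (12.7%) against 19.7% of all features, and 55 (33.3%) had groups apart against 27.7%. The median log2 difference over the 165 genes was 0.02.

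The sensors and signalling genes of the unfolded protein response ran from -0.38 to 0.28 over 17 genes. The 3 with an unadjusted p under 0.05 (17.6%) were all lower, against 10.1% of all features and 7.23% of those with a symbol. Ddit3 (Chop), the transcription factor of the late, pro-apoptotic arm, had the smallest p of them. It read 2.99, 3.04 and 2.78 in corn oil and 2.56, 2.61 and 2.50 in chlorothalonil rats. The groups were apart, at -0.38 ± 0.09 (adjusted p = 0.091), on the same side as Xbp1.

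Among 37 other genes of ER folding and translocation, 25 (67.6%) lay above 0, as did 55.7% of features with a symbol. All 6 with an unadjusted p under 0.05 (16.2%, against 19.7% of all features) were higher, against 9.6% of all features and 11.3% of those with a symbol. The smallest p was that of Sil1, the nucleotide exchange factor of BiP, at 0.28 ± 0.07 (adjusted p = 0.093). Among 22 other genes of ER-associated degradation, 15 (68.2%) lay above 0. An unadjusted p under 0.05 was found for 4 (18.2%, against the same 19.7%). All 4 were higher, against 9.6% of all features and 11.3% of those with a symbol. Selenos, a selenoprotein that links the retrotranslocation complex to its ATPase, had the smallest p, at 0.29 ± 0.06 (adjusted p = 0.081).

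Derl3, an inducible member of the derlin channel family, was picked after its values were seen because it had the largest difference of these lists. It read -1.82, -0.62 and -1.75 in corn oil and 0.98, -0.61 and 0.00 in chlorothalonil rats (1.52 ± 0.50; adjusted p = 0.18). Chlorothalonil replicate 1 was the highest array and replicate 2 the lowest of its group, the order also seen for Ero1b and Sdf2l1.

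The cytosolic lists were centred close to 0. The 35 cytosolic co-chaperones had a median of -0.01. At an unadjusted p under 0.05 there were 7 (20%), near the 19.7% of all features. Of these, 3 were higher (8.57%, against 9.6%) and 4 lower (11.4%, against 10.1%). The smallest p was that of Dnajc8, a nuclear J-domain protein linked to splicing (0.27 ± 0.06, adjusted p = 0.084). The 11 other mitochondrial chaperones had a median of 0.02, with Dnaja3 (Tid1) at 0.31 (adjusted p = 0.20). The 12 TRiC and prefoldin subunits, which fold actin and tubulin, had 10 genes below 0 and a median of -0.06, with Cct3 at -0.14 (adjusted p = 0.26). The 31 proteasome subunits had a median of 0.00, and their largest deviations were -0.09 and 0.12; Psmd3 had the smallest p (0.11; adjusted p = 0.35).

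**Figure D5:**
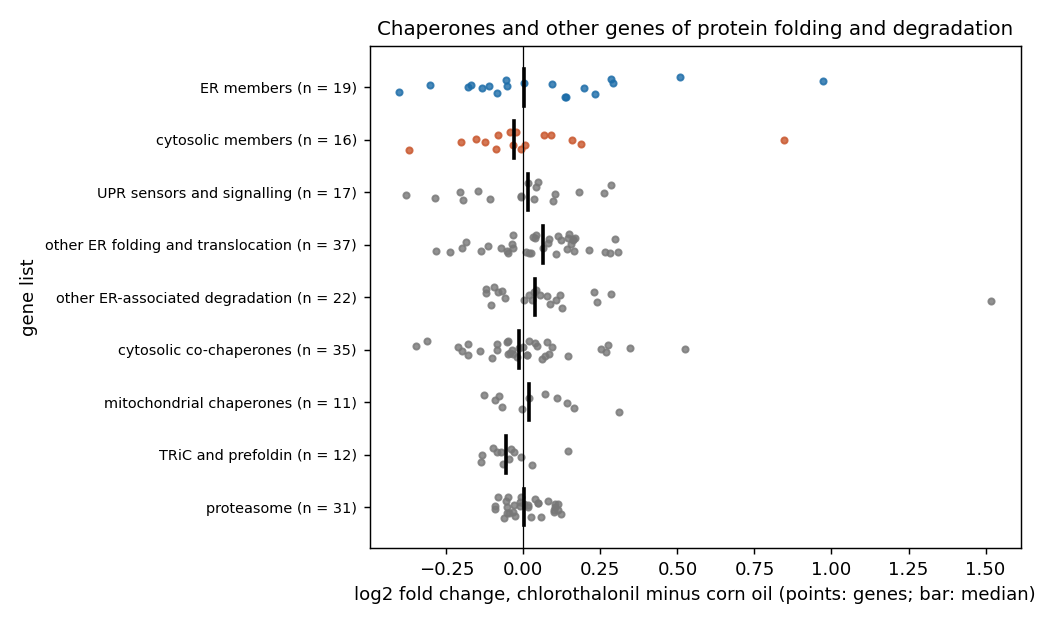
Log2 difference (chlorothalonil minus corn oil; horizontal axis) of each measured gene of the ER and cytosolic chaperones (coloured) and of the 7 other lists of protein folding and degradation (grey), with the median of each list as a black bar. The medians lie between -0.06 and 0.07, and 0 of the genes shown passed the adjusted p of 0.05, against 3.12% of all features.

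Leaving out chlorothalonil replicate 3 left the count of chaperones past the threshold at 0, where 0.629% of all features passed. Without it the difference was 0.28 for Sel1l, 0.27 for Dnajc3, -0.41 for Xbp1 and -0.27 for Hsph1.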

How the data were processed

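Per the labels' protocols, Cy3-labelled cRNA of 6 animals was hybridised to Agilent arrays, 3 per group. The authors deposited scanner output as an intensity on a linear scale, background-subtracted and detrended within each array per the file headers, extracted with Agilent Feature Extraction (version 10.7 per the submitters' processing notes). The deposited value table holds a ratio, the processed signal over 1 constant per array near its 75th percentile; this was found from the values, and how that constant was set is not stated. The table is linear and not centred, with column medians of 0.107, 0.109 and 0.112 (corn oil) and 0.105, 0.105 and 0.106 (chlorothalonil).

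Values here are log2 of the processed signal minus the array's 75th percentile over non-control probes, with outlier spots (0 to 9 per array) left out; 0 probes were saturated. Probes were kept if well above background on all 3 arrays of a group, with values from 2 or more arrays in each. Accessions were named through RefSeq (GRCr8): 28206 of 61537 probes matched 1 gene. The brightest of a gene's 39862 kept probes stood for it, giving 29115 features. The test was limma 3.58.1 (lmFit, eBayes; R 4.3.3), with Benjamini-Hochberg adjustment over all features; all p-values are from it. They measure the spread between these animals, and the number of arrays limits the precision. The fit was tested on simulated data. The chaperones, the other lists and the markers were chosen with earlier results of these data known. Genes given array by array were the 6 ER and 6 cytosolic genes with the smallest p and a short list of stress genes; from each other list the gene with the smallest p was named. Coordinates in the array files belong to an older rat build and were not used.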

Additional observations from a re-analysis of the deposited data

How the results depend on the processing

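The count of chaperones past the threshold was 0 and rose to 1, the ER gene Dnajc3, with a normexp background and with a trended, robust prior; the pathway lists went from 0 to 3 (Dnaja2, Traf2, Txndc11) and 4 (Ddit3, Dnajc8, Selenos, Sil1) genes in those fits. The cause was not tested. The count over all features was 909 and ran from 127 to 402 when 1 array was left out (fewer arrays): 402, 297 and 225 without corn oil replicates 1 to 3, and 127, 141 and 183 without chlorothalonil replicates 1 to 3. It was 172 with no filter on dim probes, where 45432 features were tested, and 0 with the replicate number as a block. The cause of these lower counts was not tested. Deviations of same-numbered animals correlated at 0.095, 0.018 and 0.051, and those of differently numbered animals at -0.090 to 0.053. With 3 arrays per group, these values cannot decide whether the numbers pair the animals. Under the block 0 chaperones passed. A slide block could not be fitted, since each slide holds 1 group. The chaperone median of the ER genes was 0.061 with the mean of a gene's probes and ran from -0.033 to 0.072 with 1 array left out, the highest without corn oil replicate 1; that of the cytosolic genes ran from -0.099, without corn oil replicate 3, to 0.020.

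Of 560 refitted values of single chaperones, 32 changed sign, over 13 genes, 0 of which passed. Scaling on the array median, which shifted all features by 0.05 and so turns any gene just below 0, gave 0.0081 for Dnaja1, 0.044 for Hsp90aa1, 0.018 for Hspb1 and 0.029 for Hspe1. The mean of a gene's probes gave 0.037 for Dnajb9 and 0.13 for Syvn1, normexp -0.0027 for Hsp90b1 and -0.0059 for Hyou1, and quantile normalization -0.015 for Hspd1 and -0.011 for Hyou1. With 1 array left out, values ran from -0.14 to 0.024 for Dnaja1, -0.11 to 0.028 for Dnajb9, -0.26 to 0.072 for Herpud1, -0.055 to 0.062 for Hsp90aa1, -0.22 to 0.17 for Hspa1a, -0.041 to 0.046 for Hspa4l, -0.20 to 0.056 for Hspb1, -0.090 to 0.41 for Hspb8, -0.082 to 0.016 for Hspe1 and -0.033 to 0.039 for Hyou1. The other 22 genes kept their sign in all 16 alternatives. Fitting each probe as a feature was added after seeing the data. Signal over background kept Hspa1l and the second Ero1b probe out.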
